A study of Mus musculus with 40 samples.

Results

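The genes described here are the transcriptional output and feedback genes of the ERK pathway in mouse melanoma, 10 genes whose transcripts are commonly read as a gauge of ERK signalling: Dusp4, Dusp5, Dusp6, Spry1, Spry2, Spry4, Spred1, Etv4, Etv5 and Fosl1. The members were all probe sets of the expression array that named 1 of these symbols and no other gene, which gave 18 of the 45141 probe sets, for 9 of the 17097 named genes. Spred1 had 5 of them, Spry4 had 4, Spry2 and Fosl1 had 2 each, and Dusp4, Dusp6, Spry1, Etv4 and Etv5 had 1 each. No probe set named Dusp5, so it is not analysed here. The other 2 probe sets that named Etv5 also named Scpep1 and were left out of the members.

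RNA from B16F10, a transplantable pigmented melanoma line of C57BL/6 origin, was measured in 40 samples, 1 array each. In culture, 4 samples of B16F10 cells treated with OTX015 were set against 4 untreated control samples. For the animal experiments, B16F10 cells were injected under the skin of C57black6J mice at 8 weeks of age, and 10 tumours of mice given OTX015 by mouth were set against 11 untreated tumours, and 6 tumours of mice given guadecitabine into the peritoneum against 5 untreated tumours of that experiment. OTX015 is an inhibitor of the BET bromodomain proteins, which bind acetylated histones, and guadecitabine is a prodrug of the DNA methyltransferase inhibitor decitabine. The labels give neither dose nor length of treatment. Nor do they state that replicates came from different cultures or mice, so a p-value measures only the spread between these samples. All groups derive from 1 cell line, and a tumour sample also holds cells of the host.

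In this pathway, receptor tyrosine kinases switch on RAS, which drives the kinases RAF, MEK and ERK in turn, and active ERK brings about transcription of its own inhibitors. Dual-specificity phosphatases take the activating phosphates off ERK, Sprouty and Spred proteins act between the receptor and RAF, and the ETS factors Etv4 and Etv5 and the AP-1 factor Fosl1 carry the signal on to further genes. In melanoma the pathway is often driven by mutant BRAF or NRAS, and these genes lose expression when it is blocked.

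Values are on the log2 scale, so that a change of 1 is a doubling. A probe set was called changed at an adjusted p under 0.05 over all 45141 probe sets, with limma's moderated test. The background level was 4.46, the 95th percentile of the means of 81 olfactory and vomeronasal receptor probe sets. By mean over all 40 arrays, 7 of the 18 member probe sets lay above it. Of the brightest probe set of each of the 9 genes, 6 lay above it, those of Dusp4, Dusp6, Spry1, Spry2, Spred1 and Etv5, while those of Spry4, Etv4 and Fosl1 lay below.

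The 250 bases before the annotated start of Dusp6, Etv5, Spry1 and Spred1, which changed in culture, are shown. They come from RefSeq on build GRCm38.p6 and run 5′ to 3′ on the strand of the gene. The start in use in these cells was not measured, and Dusp4, also called in culture, is not shown. Capitals mark the GC box GGGCGG on either strand. The windows are chr10:99262981-99263230 on the plus strand for Dusp6, chr16:22439571-22439820 on the minus strand for Etv5, chr3:37639697-37639946 on the plus strand for Spry1 and chr2:117120821-117121070 on the plus strand for Spred1.
Dusp6: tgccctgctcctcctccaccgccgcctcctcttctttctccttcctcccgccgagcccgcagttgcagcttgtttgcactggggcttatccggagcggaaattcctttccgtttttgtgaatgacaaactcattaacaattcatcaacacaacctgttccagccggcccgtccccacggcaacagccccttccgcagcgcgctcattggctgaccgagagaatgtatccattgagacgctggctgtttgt
Etv5: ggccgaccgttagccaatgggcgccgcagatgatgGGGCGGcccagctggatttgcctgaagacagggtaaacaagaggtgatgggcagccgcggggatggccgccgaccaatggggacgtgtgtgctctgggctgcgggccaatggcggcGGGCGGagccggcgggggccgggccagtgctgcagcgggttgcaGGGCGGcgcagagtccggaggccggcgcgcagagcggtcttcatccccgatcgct
Spry1: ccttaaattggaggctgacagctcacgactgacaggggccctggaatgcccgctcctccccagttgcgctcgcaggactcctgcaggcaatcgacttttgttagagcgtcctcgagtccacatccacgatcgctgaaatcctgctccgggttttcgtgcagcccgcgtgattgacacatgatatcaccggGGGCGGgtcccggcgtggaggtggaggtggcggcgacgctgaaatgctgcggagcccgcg
Spred1: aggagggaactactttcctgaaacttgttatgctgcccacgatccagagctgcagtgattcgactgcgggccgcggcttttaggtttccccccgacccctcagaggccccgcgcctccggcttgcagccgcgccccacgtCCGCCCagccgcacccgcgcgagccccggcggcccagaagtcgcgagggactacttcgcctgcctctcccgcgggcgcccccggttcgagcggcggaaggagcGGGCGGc

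The window of Dusp6, the gene that fell furthest in culture among the members, held no GC box, and the window shown for Etv5, which rose, held 3. A second annotated start of Etv5 has the window chr16:22438369-22438618 on the minus strand, not shown, which held no GC box, so the count for Etv5 depends on the start taken. The Spry1 window held 1 GC box and the Spred1 window 2. A GC box stood in 32.7% of the 32851 windows of this length before all annotated starts. None of these windows, the second of Etv5 included, held the ETS site CCGGAAGT (in 2.88% of all windows), the AP-1 site TGANTCA (6.75%), the CRE TGACGTCA (1.55%), the E-box CACGTG (6.02%) or the TATA box TATAAA (12.4%), each searched on both strands, with no overlap between the GC boxes and another motif. Bases G and C made up 56.4% of the Dusp6 window, 71.2% of the Etv5 window shown and 62% of its second, 62.4% of the Spry1 window and 70.8% of the Spred1 window, against a median of 52.4% over all windows. These matches describe letters in the windows only.

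The arrays were checked before the members were compared. All 10 melanocyte markers lay above background in all 6 groups. Of 10 macrophage markers, 9 lay below background in both groups of cultured cells and 1 in each tumour group, so tumour values mix tumour and host cells, in which fewer cells of a type and less RNA per cell cannot be told apart. The mean of all probe sets was 4.35 to 4.39 on the 10 arrays of OTX015-treated tumours and 4.55 to 4.64 on the other 30 arrays, and for this reason the tumours of the OTX015 experiment were compared after quantile normalization of their 21 arrays. The smallest spread of values (SD 1.82, 1.85 and 1.80) was found on 3 arrays of that experiment. These were OTX015-treated tumour 4, which is also 1 of the 10 above, and control tumours 9 and 11. Results that rest on these 3 arrays are also given without them.

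OTX015 split the members in cultured cells. Dusp6 fell 7.35-fold, Spry1 and Spred1 fell by less, Etv5 and Dusp4 rose, and Spry2, Spry4, Etv4 and Fosl1 did not pass the test. Of the 18 probe sets, 2 were higher and 5 lower, where 13.7% of all probe sets were called higher and 15.3% lower, 29.1% in either direction. Of the 9 genes on their brightest probe sets, 2 were higher and 3 lower, where 16.1% of all genes were higher and 21% lower, 37.2% in either direction. Calls were common across the whole array, so the number of members called is not in itself a result about the members. The 4 treated and 4 control samples did not overlap on the 7 called probe sets and overlapped on the other 11, where they did not overlap on 30% of all probe sets.

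Dusp6 encodes a cytoplasmic phosphatase with a strong preference for ERK. It lay at 6.39, 6.21, 6.31 and 6.22 in OTX015-treated cells, against 9.11, 9.19, 9.22 and 9.12 in control cells. All treated samples were low, within a narrow range and still above background, and the gap between the groups was many times the spread within either. The log2 change was −2.88 ± 0.065 (SE, limma adjusted p = 9.43e-10). It was the 75th lowest log2 change of all 45141 probe sets and the 39th lowest of the 17097 genes.

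Dusp4, a nuclear phosphatase that acts on ERK and on other MAP kinases, moved the other way. Its values were 7.33, 7.31, 7.45 and 7.49 in OTX015-treated cells, against 7.26, 7.27, 6.86 and 6.88 in control cells. The groups did not overlap, but the gap was small beside the spread of the controls, which fell into a higher and a lower pair. The log2 change was 0.33 ± 0.107 (SE, adjusted p = 0.0416). The call was lost in 5 of the 8 fits that left out 1 array (adjusted p up to 0.121) and with all 6 groups in 1 fit (adjusted p = 0.376).

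Among the Sprouty and Spred inhibitors, Spry1 and Spred1 fell. Spry1, an inhibitor of signalling from growth factor receptors to RAS, had 5.98, 5.89, 5.77 and 5.80 in OTX015-treated cells, against 6.34, 6.31, 6.27 and 6.33 in control cells. Every treated sample was below every control sample, with a log2 change of −0.46 ± 0.065 (SE, adjusted p = 0.000267). Spred1 recruits the RAS inhibitor neurofibromin to the membrane. Its brightest probe set had 7.37, 7.31, 7.07 and 7.14 in OTX015-treated cells, against 7.81, 7.81, 7.58 and 7.68 in control cells. The groups were again apart, with a log2 change of −0.50 ± 0.086 (SE, adjusted p = 0.00109). With all 6 groups in 1 fit neither call held (adjusted p = 0.122 for Spry1 and 0.0979 for Spred1). In that fit the tumour arrays also enter the estimate of the spread. The log2 changes stayed at −0.46 and −0.50, with a larger SE of 0.202 for Spry1 and 0.208 for Spred1.

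The 4 other Spred1 probe sets all had a negative log2 change, and 2 of them passed. Probe set 1423161_PM_s_at changed by −0.56 (adjusted p = 0.00176) and the dim 1428777_PM_at by −0.32 (adjusted p = 0.0127). Probe sets 1423162_PM_s_at (−0.15, adjusted p = 0.337) and 1452911_PM_at (−0.26, adjusted p = 0.196), both below background, did not pass. Spry2, which like Spry1 inhibits receptor signalling, had a log2 change of −0.08 with a 95% interval of −0.29 to 0.13 (adjusted p = 0.614). The brightest of the 4 Spry4 probe sets had a log2 change of 0.02, with an interval of −0.16 to 0.21 (adjusted p = 0.894), at levels below background in both groups.

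Among the transcription factors only Etv5 passed the test in culture. Etv5 had 4.33, 4.28, 4.44 and 4.49 in OTX015-treated cells, against 2.89, 3.14, 2.97 and 3.27 in control cells. The treated samples sat close to the background level of 4.46 and all control samples well under it, so the change was measured at or under the floor of the array. The log2 change was 1.32 ± 0.091 (SE, adjusted p = 1.46e-06), the 563rd highest of 45141. Etv4, an ETS factor of the same subfamily, had a log2 change of 0.11 (interval −0.18 to 0.40, adjusted p = 0.619). Fosl1 had a log2 change of −0.09 (interval −0.27 to 0.08, adjusted p = 0.458). Both lay below background in both groups of cells, where a change could pass unseen.

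**Figure D1:**
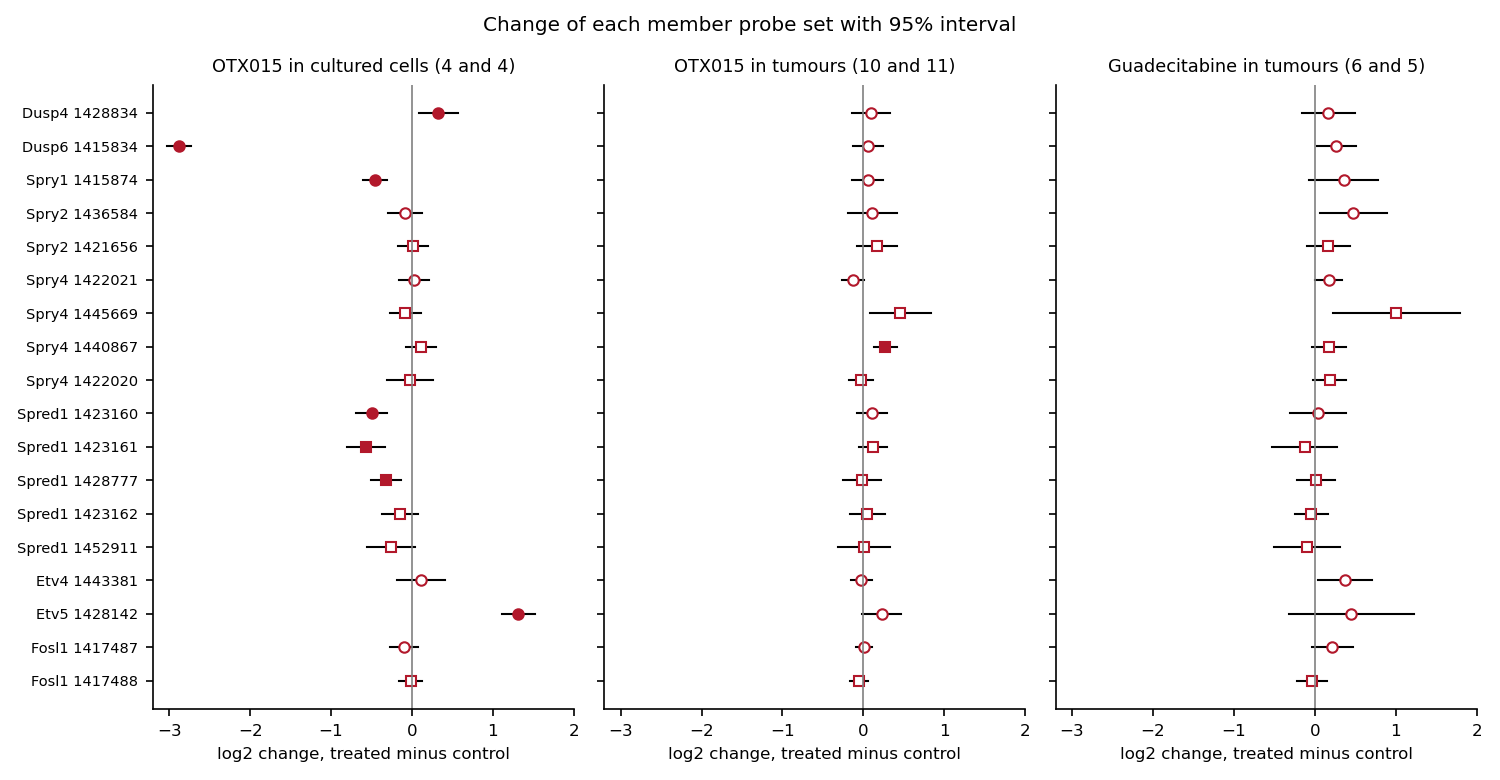
Log2 change (treated minus control, x axis) of each of the 18 member probe sets (y axis, gene symbol and probe set number) with its 95% interval in 3 comparisons. Circles are the brightest probe set of a gene, squares the others, and filled symbols passed the test. Dusp6 at −2.88 and Etv5 at 1.32 stand far from 0 in culture, and in tumours the 1 filled symbol is a Spry4 probe set at 0.27.

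The other genes of the pathway also moved in both directions in cultured cells. Of the 102 genes on 5 lists of other pathway genes, 50 were called (49%), where 37.2% of all genes were. Of 18 other ERK feedback genes measured, 9 rose and 5 fell, with a median log2 change of 0.24, against −0.0018 over the brightest probe sets of all genes and −0.08 over the 9 members. Dusp1, a nuclear phosphatase that acts mainly on p38 and JNK, rose by 2.16 on the log2 scale (adjusted p = 3.97e-09). Dusp10, also a phosphatase of p38 and JNK, rose by 1.13 (adjusted p = 3.55e-06), and Lztr1, an adaptor for the breakdown of RAS proteins, fell by 1.28 (adjusted p = 1.59e-06). Of the 8 other dual-specificity phosphatase genes on this list, 5 rose and 1 fell, the last being Dusp2 (log2 change −0.69, adjusted p = 5.85e-05).

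Of 27 other ERK target genes, 11 rose and 7 fell. Jun, an AP-1 factor, rose by 1.88 (adjusted p = 1.40e-07). Elk3, a ternary complex factor, fell by 1.83 (adjusted p = 1.62e-08), and Ccnd1, which encodes cyclin D1 and drives entry into the cell cycle, fell by 1.66 (adjusted p = 1.45e-06). Of 19 genes of the RAS, RAF, MEK and ERK cascade, 5 rose and 6 fell, among them Rras2 (log2 change 1.39, adjusted p = 1.88e-07), Rras (−0.73, adjusted p = 1.38e-05) and Grb2 (0.60, adjusted p = 1.71e-05). Rras2 and Rras encode RAS-related GTPases, and Grb2 the adaptor that links receptors to RAS.

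Of 20 receptor tyrosine kinases, 1 rose and 3 fell. Erbb3, a receptor for neuregulins, fell by 1.53 (adjusted p = 3.63e-06), Kit, a receptor of the melanocyte lineage, fell by 1.05 (adjusted p = 7.56e-06), and Igf1r, the receptor for insulin-like growth factors, rose by 0.58 (adjusted p = 0.00198). Of 18 ligand genes, 2 rose and 1 fell. Hbegf, a ligand of the EGF receptor, rose by 1.56 (adjusted p = 1.32e-07), Tgfa, another ligand of that receptor, fell by 1.34 (adjusted p = 1.03e-05), and Nrg1, a neuregulin, rose by 0.24 (adjusted p = 0.0156) at a level below background.

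As a check of the drug, Hexim1, which rises when BET proteins are inhibited, rose by 2.25 in cultured cells (adjusted p = 5.48e-08). Myc, the other check, had a log2 change of −1.24 in these cells (limma adjusted p = 2.17e-06). Other features of the arrays moved with the same contrast. The mean of the 10 melanocyte markers was 10.18 to 10.22 in OTX015-treated cells and 10.66 to 10.78 in control cells. Single markers went both ways, with 4 called lower and 2 higher. Trpm1 (log2 change −3.05) and Slc45a2 (−2.66) fell furthest, and Tyr (0.79) and Pmel (0.27) rose. The mean of 3 RNAs retained in the nucleus was 7.25 to 7.77 in treated and 6.04 to 6.25 in control cells. Their part in the members' changes was not tested.

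**Figure D2:**
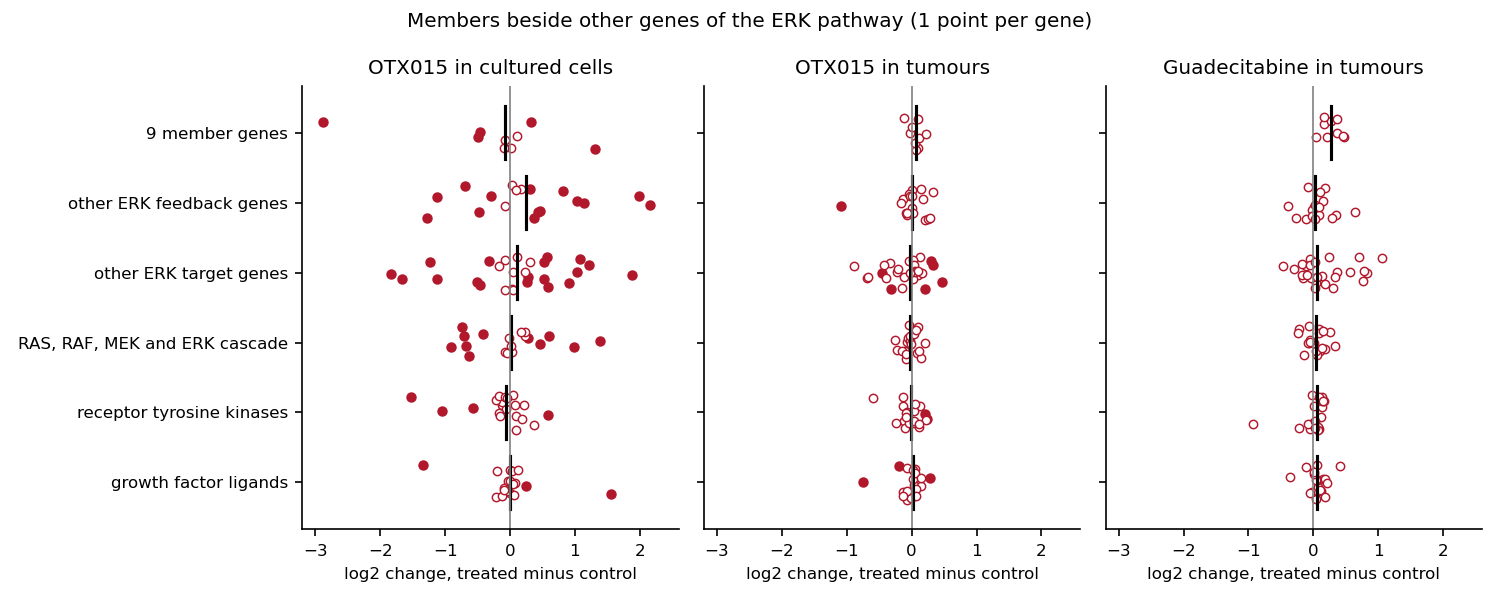
Log2 change (x axis, treated minus control) of each gene on its brightest probe set, for the 9 members and 5 lists of other genes of the pathway (rows), in 3 comparisons. Each point is a gene, filled where it passed the test, and the bar is the median of the list. In culture every list holds called genes on both sides of 0. In tumours given guadecitabine no point is filled.

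Few member probe sets passed the test in tumours of OTX015-treated mice. None of the 9 genes passed on its brightest probe set, where 16.8% of all genes did, and 1 of the 18 probe sets passed, a dim one for Spry4, where 16.7% of all probe sets did. The median log2 change was 0.06 over the 18 member probe sets and 0.0011 over all probe sets. The OTX015-treated and control tumours overlapped on all 18, and on all but 1.47% of all probe sets.

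Dusp6 lay between 9.93 and 10.55 (median 10.30) in the 10 OTX015-treated tumours and between 9.88 and 10.74 (median 10.12) in the 11 control tumours. The ranges were nearly the same, and the log2 change was 0.06, with a 95% interval of −0.12 to 0.24 (adjusted p = 0.707). The lower end of this interval lies far from the −2.88 measured in culture. Dusp4 lay between 7.18 and 8.12 (median 7.71) in treated and between 7.16 and 8.03 (median 7.59) in control tumours, a log2 change of 0.10 (interval −0.14 to 0.33, adjusted p = 0.629).

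Spry1 lay between 6.38 and 6.76 (median 6.57) in OTX015-treated tumours and between 5.95 and 7.001 (median 6.48) in control tumours, so that the treated tumours lay within the range of the controls. Its log2 change was 0.05 (interval −0.14 to 0.25, adjusted p = 0.748). Spry2 had a log2 change of 0.11 (interval −0.19 to 0.41, adjusted p = 0.665). The brightest probe set of Spred1 had a log2 change of 0.10 (interval −0.08 to 0.29, adjusted p = 0.493). For these inhibitors, then, the tumour intervals include 0 and reach at most 0.41 from it.

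Spry4 was the 1 member with a called probe set in tumours. Probe set 1440867_PM_at lay between 4.01 and 4.52 (median 4.28) in OTX015-treated tumours and between 3.84 and 4.23 (median 3.95) in control tumours. The groups overlapped, both means were below background, and the log2 change was 0.27 ± 0.069 (SE, adjusted p = 0.00939). The other 3 Spry4 probe sets did not pass and did not share 1 direction. Their log2 changes were −0.13 for the brightest (adjusted p = 0.203), 0.46 for 1445669_PM_at (adjusted p = 0.0888) and −0.03 for 1422020_PM_at, with a 95% interval of −0.18 to 0.12.

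Etv5 lay between 7.17 and 7.84 (median 7.41) in OTX015-treated tumours and between 6.85 and 7.88 (median 7.31) in control tumours. It had the largest log2 change of the 9 brightest probe sets, 0.23 with an interval of −0.01 to 0.46 (adjusted p = 0.195), which did not pass. Etv4 had a log2 change of −0.02 (interval −0.16 to 0.11, adjusted p = 0.847). Fosl1 had one of 0.0039 (interval −0.10 to 0.10, adjusted p = 0.971). Both stayed below background.

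The direction of most of these changes depends on the scale of the arrays. On the deposited scale the median change of all probe sets in these tumours was −0.21, and 59.4% of all probe sets were called, 576 higher and 26259 lower, against 3884 higher and 3645 lower after quantile normalization. On that scale 6 of the 18 member probe sets were called, all lower, on probe sets of Spry4, Spred1, Etv4 and Fosl1 near or below background. The Spry4 probe set called after normalization had a log2 change of 0.01 there (adjusted p = 0.882). Dusp6 had −0.12 (adjusted p = 0.339) and Etv5 −0.01 (adjusted p = 0.948). Without the 3 arrays of small spread, left out after seeing the data, Dusp6 had a log2 change of −0.03 after quantile normalization.

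Of the 102 genes on the 5 lists of other pathway genes, 12 passed in these tumours, where 16.8% of all genes did. Of 18 other feedback genes, 1 fell and none rose. This was Dusp1, with a log2 change of −1.09 (adjusted p = 0.0145), where in culture it had risen. Of 27 other target genes, 4 rose and 2 fell, among them Epha2, an ephrin receptor below background here (−0.32, adjusted p = 0.000190), Etv1, an ETS factor related to Etv4 and Etv5 (0.47, adjusted p = 0.00316), and Cic, a repressor of ETS factor genes that ERK inactivates (0.32, adjusted p = 0.00737). None of the 19 cascade genes passed.

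Of 20 receptors, 2 rose, Flt4 (0.23, adjusted p = 0.000248), a receptor of lymphatic endothelium, and Fgfr4 (0.21, adjusted p = 0.00446), a fibroblast growth factor receptor, both at levels below background. Of 18 ligands, 1 rose and 2 fell, with Igf1, an insulin-like growth factor, at −0.75 (adjusted p = 0.00286), Fgf7, a fibroblast growth factor, at 0.28 (adjusted p = 0.00782) and Nrg1 at −0.20 (adjusted p = 0.0111), of which Fgf7 and Nrg1 lay below background. Hexim1 had a log2 change of 0.12 (adjusted p = 0.373) and Myc, which BET proteins help transcribe, −0.14 (adjusted p = 0.669). Of 10 macrophage markers 8 fell, and their mean on the deposited scale was 4.36 to 6.27 in OTX015-treated and 6.00 to 7.67 in control tumours. The part of these cells in the tumour values was not tested.

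For 3 members the effect of OTX015 differed between tumours and culture when the difference itself was tested. Of the 18 probe sets 4 passed, where 25.9% of all probe sets did, and of the 9 genes 3 passed, where 31.6% of all genes did. For Dusp6 the log2 change in tumours was higher than that in cells by 3.01 ± 0.150 (SE, interval 2.71 to 3.32, adjusted p = 2.98e-15). For Etv5 the difference was −1.03 ± 0.195 (SE, adjusted p = 0.000153), with the cell values near or below background. For Spred1 it was 0.58 on the brightest probe set (adjusted p = 0.00521) and 0.62 on 1423161_PM_s_at (adjusted p = 0.00195).

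The Spred1 difference did not pass on deposited values, at 0.37 (adjusted p = 0.227), nor with arrays centred on their medians, at 0.61 (adjusted p = 0.113). For Spry1 the difference was 0.41 (adjusted p = 0.0588), just short of the threshold, and it passed with arrays weighted by their quality (0.39, adjusted p = 0.0102). Across 10 other settings of the processing its adjusted p ran from 0.0102 to 0.285. For Dusp4 it was −0.28 (interval −0.67 to 0.11, adjusted p = 0.320). Spry2, Spry4, Etv4 and Fosl1 also did not pass, with differences between −0.16 and 0.12 on their brightest probe sets. On deposited values Spry4 (−0.40, adjusted p = 0.00992) and Etv4 (−0.38, adjusted p = 0.0495) passed, both near or below background.

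**Figure D3:**
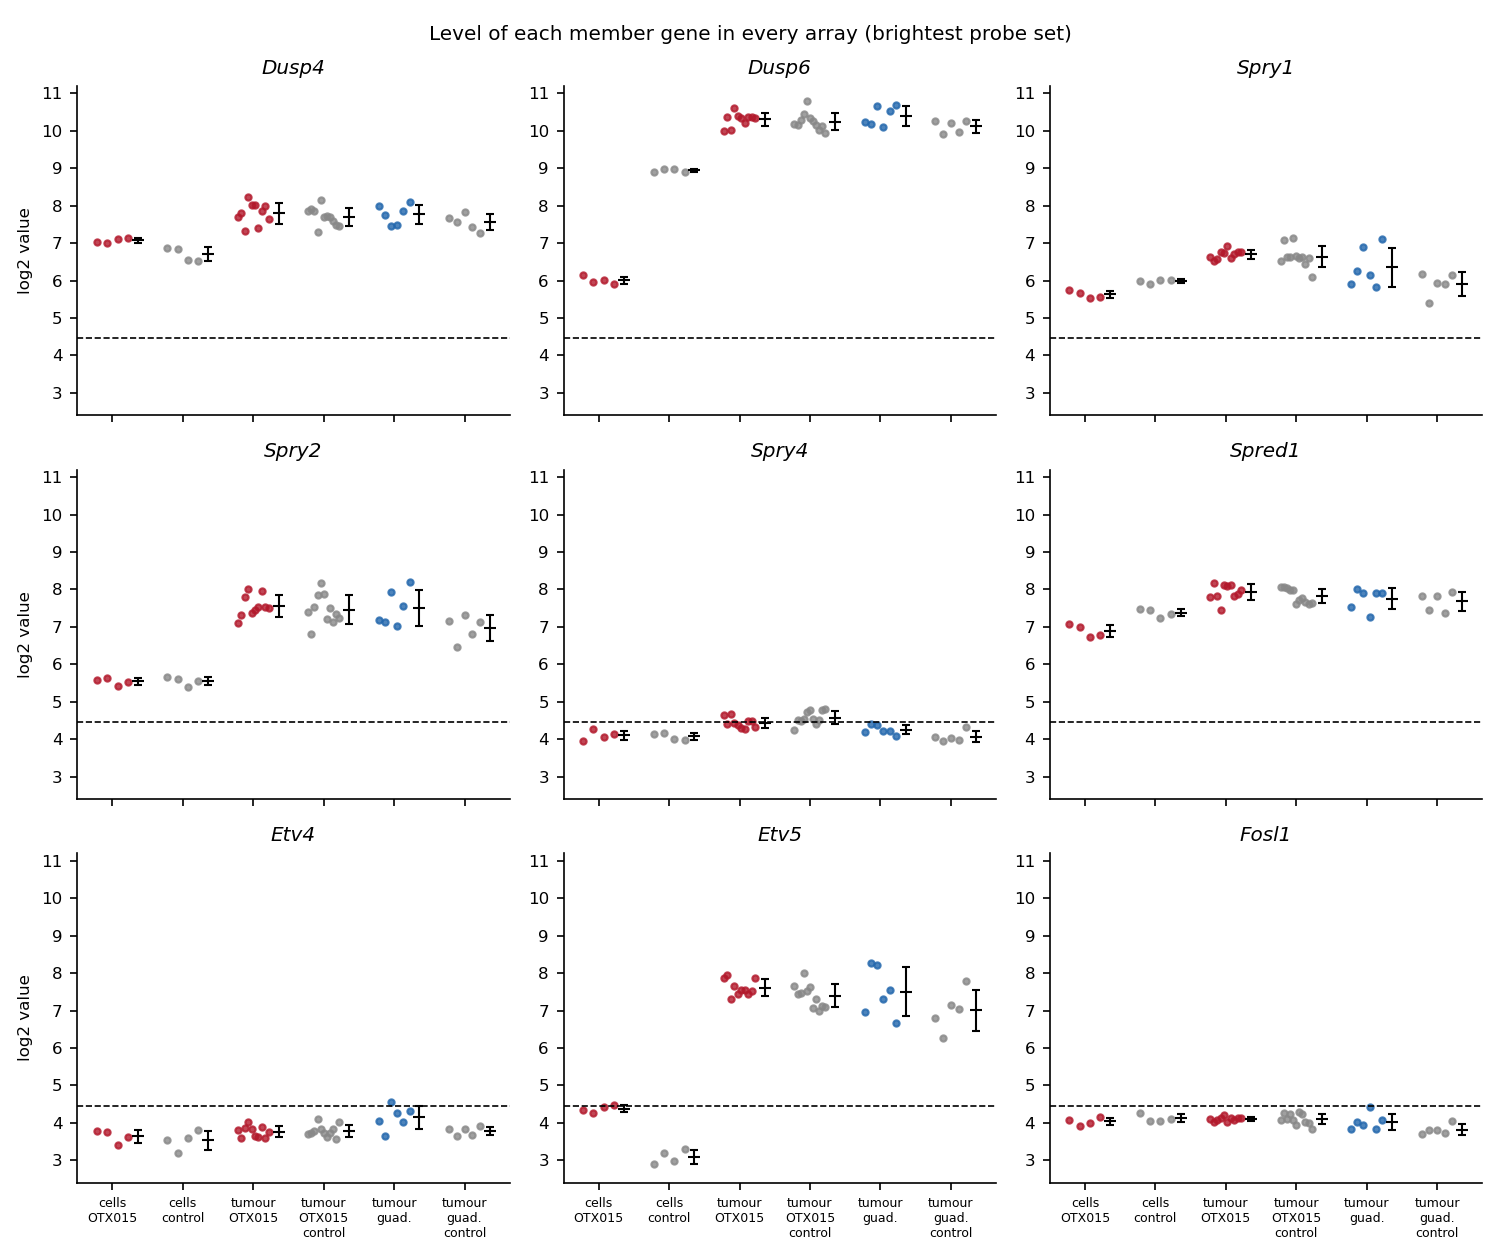
Log2 value (y axis) of the brightest probe set of each of the 9 member genes in all 40 arrays, quantile normalized together, by group (x axis, guad. for guadecitabine). Each point is 1 array, the bar beside a group is its mean and SD, and the dashed line is the background level of 4.46. Dusp6 is lowest in OTX015-treated cells, at a mean of 6.00, and near 10 in all tumour groups, and Etv5 is near or below background in cells and above it in all tumours.

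Levels in the 6 groups, with all 40 arrays brought to 1 distribution, show where each member stood. Dusp6 averaged 6.00 ± 0.10 in OTX015-treated cells and 8.94 ± 0.05 in control cells (SD, n = 4 each), and its 4 tumour groups averaged between 10.13 and 10.40. Etv5 averaged 4.37 ± 0.09 in OTX015-treated cells and 3.09 ± 0.18 in control cells (SD, n = 4 each), and between 7.01 and 7.61 in the tumour groups. Every tumour thus lay above every cultured sample for both genes. Spry2 averaged 5.54 in OTX015-treated and 5.56 in control cells, and between 6.97 and 7.56 in the tumour groups.

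Dusp4 averaged 7.07 in OTX015-treated cells and 6.71 in control cells, and between 7.56 and 7.80 in the tumour groups. Spry1 had its lowest tumour mean, 5.91, in the controls of the guadecitabine experiment, which overlapped both groups of cells, and 6.36 to 6.70 in the other 3 tumour groups. Spred1 averaged 6.90 in OTX015-treated and 7.38 in control cells and between 7.68 and 7.93 in the tumour groups. The 6 group means lay between 4.07 and 4.57 for Spry4, between 3.53 and 4.15 for Etv4 and between 3.82 and 4.12 for Fosl1, around or below background. Tumours and cultures are separate experiments, so their levels were not tested against each other.

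No member passed the test in tumours of guadecitabine-treated mice. With limma, 0 of the 18 probe sets and 0 of the 9 genes passed, and 0% of all 45141 probe sets did, the lowest adjusted p being 0.120, although 3079 had an unadjusted p under 0.05. Of the 18 member probe sets, 4 had an unadjusted p under 0.05, all with a positive log2 change. The log2 change was positive for 14 of 18 probe sets and for all 9 brightest ones, with a median of 0.27 over the 9, against 0.04 over the brightest probe sets of all genes. All genes were measured on the same arrays, so they are not independent of each other. Other features moved in this contrast, though no gene of their lists was called. The median log2 change was −1.03 over 3 RNAs retained in the nucleus, −1.06 over 2 erythrocyte markers and −0.47 over 10 macrophage markers. The other marker lists had medians between 0.0087 and 0.16. Their part in the members' changes was not tested. The guadecitabine-treated and control tumours overlapped on all 18 probe sets, and on all but 0.605% of the whole array.

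Dusp6 lay between 10.19 and 10.65 (median 10.43) in the 6 guadecitabine-treated tumours, against 10.29, 9.95, 10.18, 10.01 and 10.34 in the 5 control tumours. The log2 change was 0.27, with an interval of 0.03 to 0.51 and an adjusted p of 0.716. Spry2 lay between 7.12 and 7.95 (median 7.53) in treated tumours, against 7.25, 6.50, 7.33, 6.95 and 7.15 in control tumours. One control tumour lay well below the others, and the log2 change was 0.47 (interval 0.06 to 0.89, adjusted p = 0.709).

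Etv4 lay between 3.66 and 4.64 (median 4.25) in treated tumours, against 3.94, 3.73, 3.94, 3.72 and 3.99 in control tumours, around the background level. Its log2 change was 0.37 (interval 0.03 to 0.70, adjusted p = 0.719). The Spry4 probe set 1445669_PM_at lay between 4.26 and 5.93 (median 5.21) in treated tumours, against 3.90, 3.64, 4.83, 3.64 and 4.70 in control tumours. The mean was above background in treated tumours and below it in control tumours, so the change was measured against a level under background. Its log2 change of 1.01 (interval 0.22 to 1.79, adjusted p = 0.709) was the largest of the members and the 32nd highest of all 45141 probe sets. It passed, at an adjusted p of 0.0346, when all 6 groups were fitted together, a fit in which the other 29 arrays also enter the estimate of the spread.

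The remaining members gave wide intervals. Spry1 had a log2 change of 0.36 (interval −0.07 to 0.79, adjusted p = 0.739) and Etv5 one of 0.45 (interval −0.32 to 1.22, adjusted p = 0.789). Dusp4 had a log2 change of 0.17 (interval −0.16 to 0.49), Fosl1 one of 0.22 (interval −0.03 to 0.47), Spry4 on its brightest probe set one of 0.17 (interval −0.0012 to 0.34) and Spred1 one of 0.04 (interval −0.31 to 0.39). No gene of the 5 other pathway lists passed, and the list members with the smallest p were Upp1 among the targets (0.57, adjusted p = 0.683), Fgf1 among the ligands (0.41, adjusted p = 0.709), Kit among the receptors (−0.94, adjusted p = 0.719), Rasal2 among the feedback genes (0.30, adjusted p = 0.719) and Rras in the cascade (0.26, adjusted p = 0.730).

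No member passed when the effect of OTX015 in tumours was tested against that of guadecitabine. Of the 18 probe sets 0 passed, where 4.59% of all probe sets did, and of the 9 genes 0 passed, where 4.16% of all genes did. An unadjusted p under 0.05 was found for 2 of the 18, where 8700 of all 45141 probe sets had one. These 2 were Etv4 at −0.38 (interval −0.66 to −0.11, adjusted p = 0.102) and Spry4 on its brightest probe set at −0.31 (interval −0.53 to −0.08, adjusted p = 0.107). Both lay near or below background. For Dusp6 the difference was −0.22, with an interval of −0.54 to 0.11 (adjusted p = 0.487).

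Members were also compared with each other among the 11 control tumours of the OTX015 experiment, on deposited values. Of the 36 pairs of the 9 genes, 10 passed by Pearson's r and 6 by Spearman's rho (two-sided permutation tests, adjusted over the 36 pairs). Dusp6 and Spry2 had r = 0.90 and rho = 0.90 (adjusted p = 0.00144 and 0.00576 by permutation). Dusp4 and Spry1 had r = 0.88 and rho = 0.93 (adjusted p = 0.00144 and 0.00576 by permutation). Spry1 and Spred1 had r = 0.83 and rho = 0.78 (adjusted p = 0.00828 and 0.0469 by permutation). The 10 passing pairs were all positive and lay among Dusp4, Dusp6, Spry1, Spry2, Spred1 and Etv5, the 6 genes above background. Pairs of other genes were not compared, so whether such relations are particular to the members was not tested.

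The number of pairs that passed depended on control tumours 9 and 11. Without them, or after quantile normalization over all 40 arrays, 0 of 36 pairs passed, with fewer tumours in the first case. The r of Dusp6 and Spry2 was 0.85 without them and 0.82 after normalization, and 0.47 among the 10 OTX015-treated tumours. The r of Dusp4 and Spry1 was 0.78 without them, 0.69 after normalization and 0.72 among the OTX015-treated tumours, where 0 pairs passed. The r of Spry1 and Spred1 was 0.56 without them, 0.55 after normalization and 0.68 among the OTX015-treated tumours. Leaving out the 2 tumours farthest from the median of Dusp6 gave an r of 0.82 with Spry2, the same for Dusp4 gave 0.87 with Spry1, and for Spry1 it gave 0.74 with Spred1. For Dusp6 and Spry1, leaving out the 2 tumours farthest from the median of Dusp6 gave an r of 0.42, where all 11 tumours gave 0.82.

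**Figure D4:**
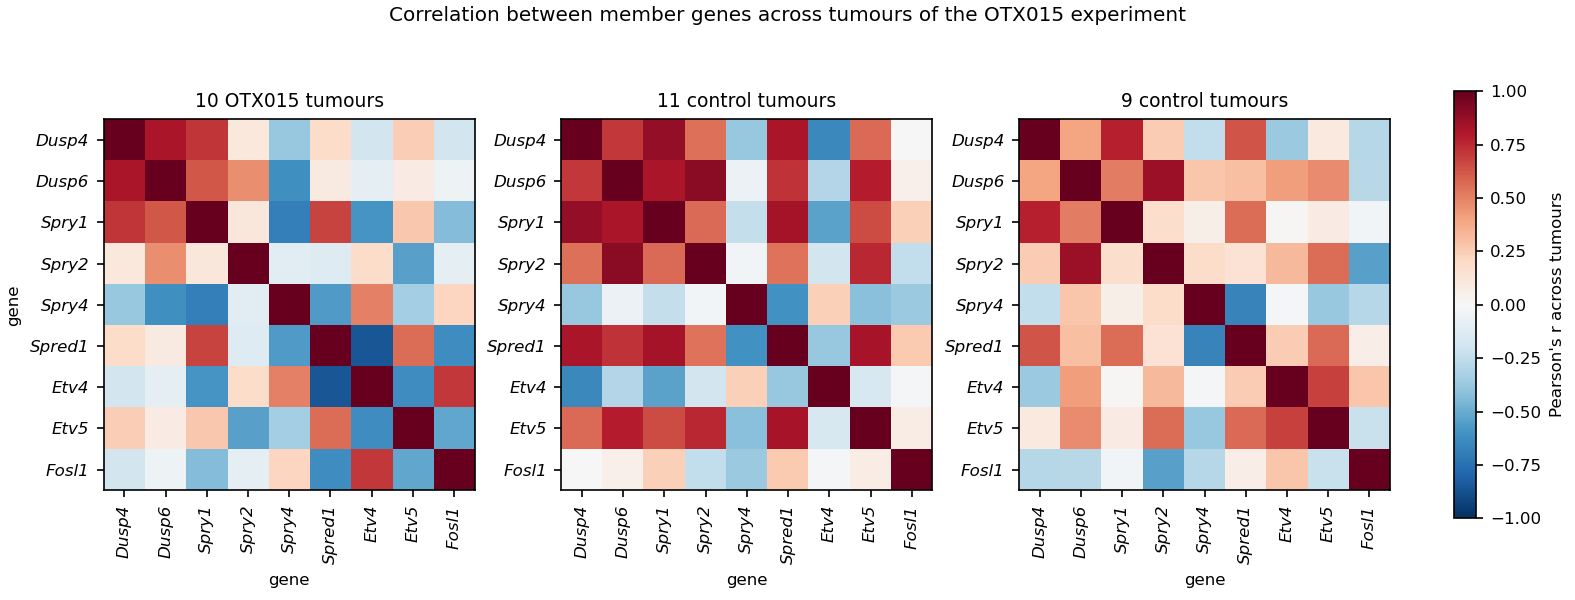
Pearson's r (colour) between the 9 member genes (both axes) across 10 OTX015-treated tumours, 11 control tumours and the 9 control tumours left without the 2 of smallest spread, on deposited values. The block of high values among Dusp4, Dusp6, Spry1, Spry2, Spred1 and Etv5 in the 11 control tumours is paler without those 2 and among treated tumours, while Dusp6 with Spry2 stays at 0.85 in the 9 control tumours.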

How the data were processed

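Total RNA was labelled for Affymetrix 3′ arrays, and the series has 1 deposited table of 45141 probe sets by 40 samples, in log2. Per the submitters' processing notes the authors used RMA and the Transcriptome Analysis Console, whose versions are not stated. RMA subtracts background, brings arrays to 1 distribution and combines probes. The sources used here do not say which arrays went through RMA together. Arrays give no read depth, so their number limits precision.

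Probe sets were named from GEO's platform annotation, with symbols updated through RefSeq: 28898 named 1 gene, 551 several and 15692 none here. The members and all gene lists were chosen with earlier results of these data known. Every member is named in every comparison, first by its brightest probe set over 40 arrays. For each other list the counts called are given, with up to 3 called genes of smallest adjusted p, or else 1 gene that did not pass. Hexim1 and Myc were added as checks of OTX015.

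Groups follow the labels. Each comparison was fitted over all probe sets with limma 3.58.1 in R 4.3.3 (lmFit, eBayes, two-sided) with Benjamini-Hochberg adjustment over 45141, on deposited values for cells and guadecitabine, and after quantile normalization for OTX015 in tumours and for both differences between effects. The procedure was tested on simulated data. Alternatives were other normalizations, a filter on dim probe sets, 1 value per gene, variance trend, array weights, all groups in 1 fit, a replicate block and leaving out arrays. Pairs of members were tested with 100000 permutations in numpy 2.4.6, with ranks from scipy 1.17.1. The main fits did not pair samples by replicate number, since no label gives the numbers that meaning. Same-numbered deviations correlated at −0.10 to 0.21 in cells, −0.52 to 0.46 in OTX015 tumours and −0.58 to 0.07 in guadecitabine tumours. Differently numbered samples were not compared in this way, so these values cannot exclude pairing. Promoter windows came from a RefSeq source on GRCm38.p6 that held none for Dusp4, Etv4 and Fosl1. No window of Spry4 was used.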

Additional observations from a re-analysis of the deposited data

Results flagged for a closer look

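In OTX015-treated tumour 4, 1 of the 3 arrays of small spread, the brightest Spred1 probe set had the lowest value of its group, 7.30, with the nearest other tumour at 7.68. It was the 1 such value among 65 groups of member values examined, and chance marks about 1 group in 20. The effect of OTX015 differed between tumours and cultured cells, by limma's test of the difference, on 4 probe sets: Dusp6 by 3.01, both brighter Spred1 probe sets by 0.58 and 0.62, and Etv5 by −1.03 on the log2 scale.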

How the results depend on the processing

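Counts are of the 18 member probe sets unless genes are named. In cells, 7 probe sets and 5 genes were called, and 2 and 2 with all 6 groups in 1 fit, which left Dusp6 and Etv5. Dusp6, Etv5, Spry1 and Spred1 kept their call in cells in all 8 fits that left out 1 array, in which 6 to 7 probe sets were called. With the replicate block Dusp4 lost its call (0.33, adjusted p = 0.0754), and the block changed no other call of a named probe set. In tumours 1 probe set was called, 6 (3 genes) on deposited values, 0 without dim probe sets, and 1 to 2 with an array left out. Guadecitabine gave 0, and 1 with all 6 groups in 1 fit. For tumours minus cells 4 were called, and 2 with median centring. For OTX015 minus guadecitabine 0 were called, 4 (3 genes) on deposited values, 1 (1 gene) with array weights, and 0 to 1 with an array left out, for probe sets and for genes. Of the pairs in control tumours 10 passed, 0 after quantile normalization, 0 among OTX015-treated tumours, 0 without the 2 control tumours of small spread (chosen after seeing the data), and 2 to 12 with an array left out, the 2 without control tumour 9 or 11.

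Reversed values were all of changes that had not passed. On deposited values OTX015 in tumours gave −0.13 for Dusp4, −0.12 for Dusp6, −0.17 for Spry1, −0.12 for Spry2, −0.13 for Spred1, −0.012 for Etv5 and −0.26 for Fosl1, and tumours minus cells gave −0.035 for Spry2 and −0.16 for Fosl1. Without the 3 arrays of small spread (also chosen after seeing the data), tumours gave −0.032 for Dusp6, −0.038 for Spry1, −0.00485 for Spry2 and −0.035 for Fosl1. Fosl1 in tumours was −0.0078 with median centring, −0.023 with array weights, −0.020 with the replicate block and −0.024 as the mean of its probe sets. As the mean of its probe sets Spry4 was 0.14 in tumours and 0.15 for tumours minus cells, and Spred1 was −0.042 with guadecitabine. With an array left out, Etv4 in cells ranged from −0.0070 to 0.20 and Spry4 in cells from −0.039 to 0.074. In tumours Etv4 ranged from −0.053 to 0.0062 and Fosl1 from −0.020 to 0.022, and with guadecitabine Spred1 ranged from −0.049 to 0.11. The causes were not tested. Levels near background limit what Spry4, Etv4, Fosl1 and, in cells, Etv5 can show, and 4 to 11 arrays a group limit the rest.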

Other observations

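The 2 probe sets that name Etv5 together with Scpep1 were left out of the members. In cultured cells 1420998_PM_at averaged 3.33 with OTX015 and 3.04 in controls, a log2 change of 0.29 ± 0.075 (SE, limma adjusted p = 0.0125), below background in both. In tumours of the OTX015 experiment, after quantile normalization, it averaged 4.59 in treated and 4.09 in control tumours, a log2 change of 0.50 ± 0.119 (SE, limma adjusted p = 0.00552). The other, 1450082_PM_s_at, had log2 changes of 0.15 in cells (adjusted p = 0.168) and 0.21 in those tumours (adjusted p = 0.204). Which of the 2 genes these values come from was not tested.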
